A study of Mus musculus with 12 samples.

Results

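Accessible regions near chemokine and chemokine receptor genes were described in ATAC-seq data of mouse blood cells. ATAC-seq marks open chromatin by where a transposase inserts sequencing adapters, and a peak is a region with many insertions. The members were the peaks of the annotated master peak-list named for a gene whose symbol starts with Ccl, Cxcl, Ccr or Cxcr and a number, or for Cx3cl1, Cx3cr1, Xcl1 or Xcr1. They numbered 249 of 84243 peaks (0.296%), with 100 named for ligand genes and 149 for receptor genes. The peaks named 46 of the 58 such genes that RefSeq places on the assembled mouse chromosomes, 39 ligands and 19 receptors.

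The list was made from 12 samples of wild-type C57BL/6 mice aged 8 to 12 weeks, 2 for each of 6 sorted cell types. Hematopoietic stem cells (HSC), megakaryocyte progenitors (MkP), erythroid progenitors (EP), granulocyte/macrophages (GM) and B cells came from bone marrow, and T cells from thymus. HSC were sorted as cKit+ Lin- Sca1+ Flk2- Slamf1+, MkP as cKit+ Lin- Sca1- Slamf1- CD41+, EP as CD71+, GM as Gr1+ Mac1+, B cells as CD43- B220+ and T cells as CD25- CD3+. No chemokine receptor was among the sort markers, and the labelled cell types could not be checked against their marker genes, as peaks carry no sample. Every peak was 499 bp wide, and the list gave neither the cell type in which a peak was found nor a height, since its score was 0 throughout. Levels in HSC and in the lineage cells were therefore not compared here, no test over samples could be run, and the results below are counts, positions and sequences. Where intervals are given, they are 95% Wilson intervals for counting error only, and genes of a family are not independent of each other.

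Chemokines are small secreted proteins that guide the movement of blood and immune cells by binding receptors that span the membrane several times and couple to inhibitory G proteins. Ligands are grouped by the spacing of conserved cysteines into CC, CXC, CX3C and XC families, and by use into homeostatic ones, which position cells in lymphoid organs and bone marrow, and inflammatory ones, which are made on demand. In bone marrow, Cxcl12 from stromal cells retains stem cells and B cell precursors through Cxcr4. In the thymus, Ccl25 attracts precursors that carry Ccr9, and Ccr7 and Ccr4 take part in the movement of thymocytes from cortex to medulla. Many of the genes lie next to each other in tandem arrays.

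Sequences are shown for the start-site peaks of 3 receptors that mark the set (Cxcr4, Ccr4 and Ccr9), since these are the places where the peak and the gene can be tied most directly. The runs are the 200 bases upstream of the transcription start site (TSS), read 5' to 3' on the gene's strand from the RefSeq genome of the same build (GRCm38, mm10). Capitals mark matches to any of 11 strings searched on both strands, described with the motif results.
Cxcr4 (chr1:128592300-128592499, minus strand): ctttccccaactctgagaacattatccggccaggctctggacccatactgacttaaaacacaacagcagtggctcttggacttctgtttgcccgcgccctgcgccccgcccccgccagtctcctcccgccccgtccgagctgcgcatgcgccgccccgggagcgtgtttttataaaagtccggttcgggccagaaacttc
Ccr4 (chr9:114496545-114496744, minus strand): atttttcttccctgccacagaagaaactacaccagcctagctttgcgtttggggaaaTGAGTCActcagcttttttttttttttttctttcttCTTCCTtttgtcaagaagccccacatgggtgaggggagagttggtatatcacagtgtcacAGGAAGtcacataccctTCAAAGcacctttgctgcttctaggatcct
Ccr9 (chr9:123767011-123767210, plus strand): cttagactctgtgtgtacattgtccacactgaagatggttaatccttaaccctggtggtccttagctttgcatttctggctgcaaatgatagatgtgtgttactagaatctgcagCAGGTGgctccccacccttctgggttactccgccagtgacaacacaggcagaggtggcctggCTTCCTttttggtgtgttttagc
The Cxcr4 run was rich in G and C (61%) and held no match. The Ccr4 run (43.5% G and C) held 4 matches, an AP-1 string at bases 58 to 64, ETS strings at bases 94 to 99 and 154 to 159, and a TCF string at bases 171 to 176. The Ccr9 run (49% G and C) held an E-box string at bases 116 to 121 and an ETS string at bases 178 to 183. A match is a string of letters in the genome and does not show that a factor was bound.

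Receptor genes had more peaks than ligand genes. All 19 receptors were named by at least 1 peak, as were 27 of 39 ligands (69.2%), beside 77.3% of 20999 protein-coding genes in RefSeq. Without the Ccl19, Ccl21 and Ccl27 genes, described with the chr4 cluster, it was 26 of 33 ligands (78.8%). The median, with genes at 0 included, was 6 peaks per receptor (quartiles 2.5 and 8.5) and 2 per ligand (quartiles 0 and 4), beside 2 over all protein-coding genes (quartiles 1 and 4). Without Cxcr4 the receptor median was still 6. Of the receptors, 12 of 19 (63.2%) had 5 or more peaks, against 9 of 39 ligands (23.1%) and 24.6% of all protein-coding genes. The difference between ligands and receptors was not tested, because the list holds no replicate values.

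Peaks at the start site were also listed for a larger share of receptors than of ligands. A promoter peak, one whose centre lies within 500 bp of the TSS by the deposited distance, was found for 10 of 19 receptors (52.6%, interval 31.7 to 72.7%) and for 10 of 39 ligands (25.6%, interval 14.6 to 41.1%). Over all protein-coding genes the share was 54.9%, which lies inside the receptors' interval and above the ligands' interval, while the intervals of ligands and receptors overlap. Of the peaks themselves, 21 of 249 (8.43%) were promoter peaks, beside 15.6% of all 84243 peaks. With 2 ligands under other symbols added, Pf4 (with a promoter peak) and Ppbp (without), 11 ligands had a promoter peak. With 5 atypical receptors added, 3 of them with a promoter peak, 13 receptors did. The lists grew as well, so these higher counts are not out of 39 and 19 genes.

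**Figure D1:**
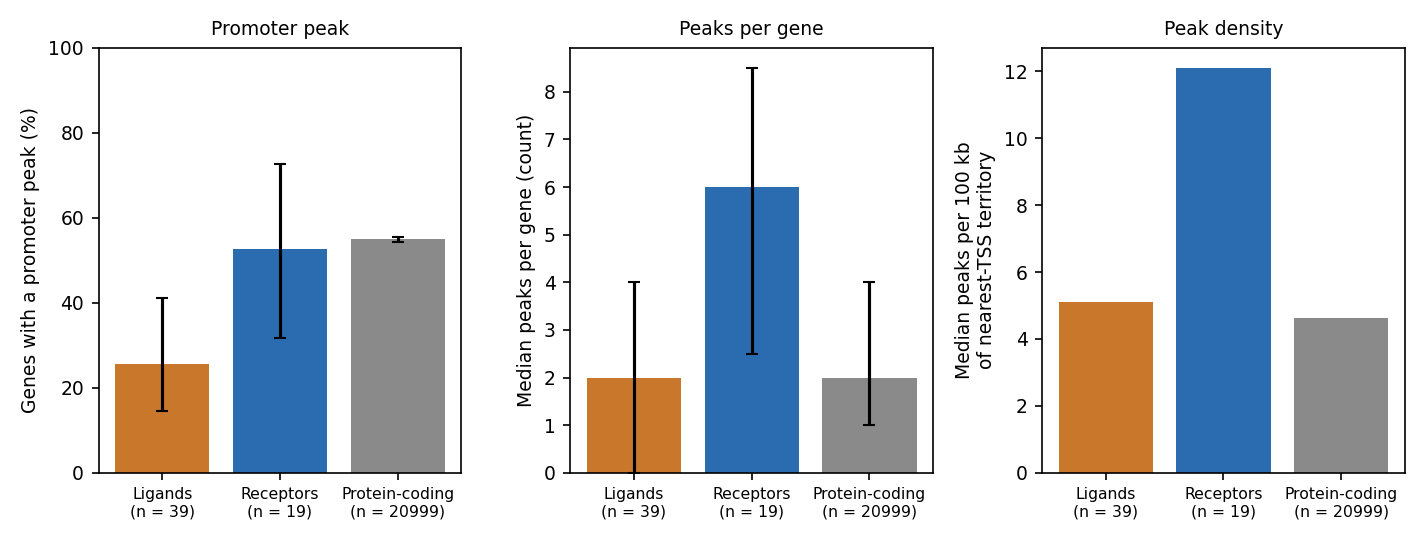
Left, the percentage of genes with a promoter peak in 39 ligands, 19 receptors and 20999 protein-coding genes, with 95% Wilson intervals. Middle, the median number of peaks per gene with the quartiles as bars. Right, the median number of peaks per 100 kb of the stretch nearest to the gene's TSS. Receptors stand above ligands in all 3 panels (52.6% against 25.6%, 6 against 2 peaks, 12.1 against 5.11 peaks per 100 kb).

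Each peak was named for the nearest TSS, so a gene with more room around it can be given more peaks. The stretch of chromosome nearest to a gene's curated TSS was therefore measured. Its median was 49.3 kb for receptors, 34.5 kb for ligands and 42.5 kb for all protein-coding genes. Per 100 kb of that stretch the median was 12.1 peaks for receptors, 5.11 for ligands and 4.63 for all protein-coding genes. In a window of the same size for every gene, 50 kb on each side of the TSS and whatever gene the peak was named for, the medians were 15 for receptors (range 3 to 23), 8 for ligands (range 0 to 15) and 6 for all protein-coding genes. The order of receptors over ligands was therefore the same per gene, per length and per fixed window. Windows of neighbouring genes overlap, so a peak can be counted for several genes. The Ccl19, Ccl21 and Ccl27 genes stayed in these ligand medians. The spacing of peaks depended on the distance looked at. The nearest other peak centre was at most 5 kb away for 70.5% of receptor peaks, 58% of ligand peaks and 52.4% of all peaks, with medians of 3049, 4023 and 4599 bp. Within 1 kb the order was the other way, with 9.4% of receptor peaks, 10% of ligand peaks and 13.2% of all peaks.

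**Figure D2:**
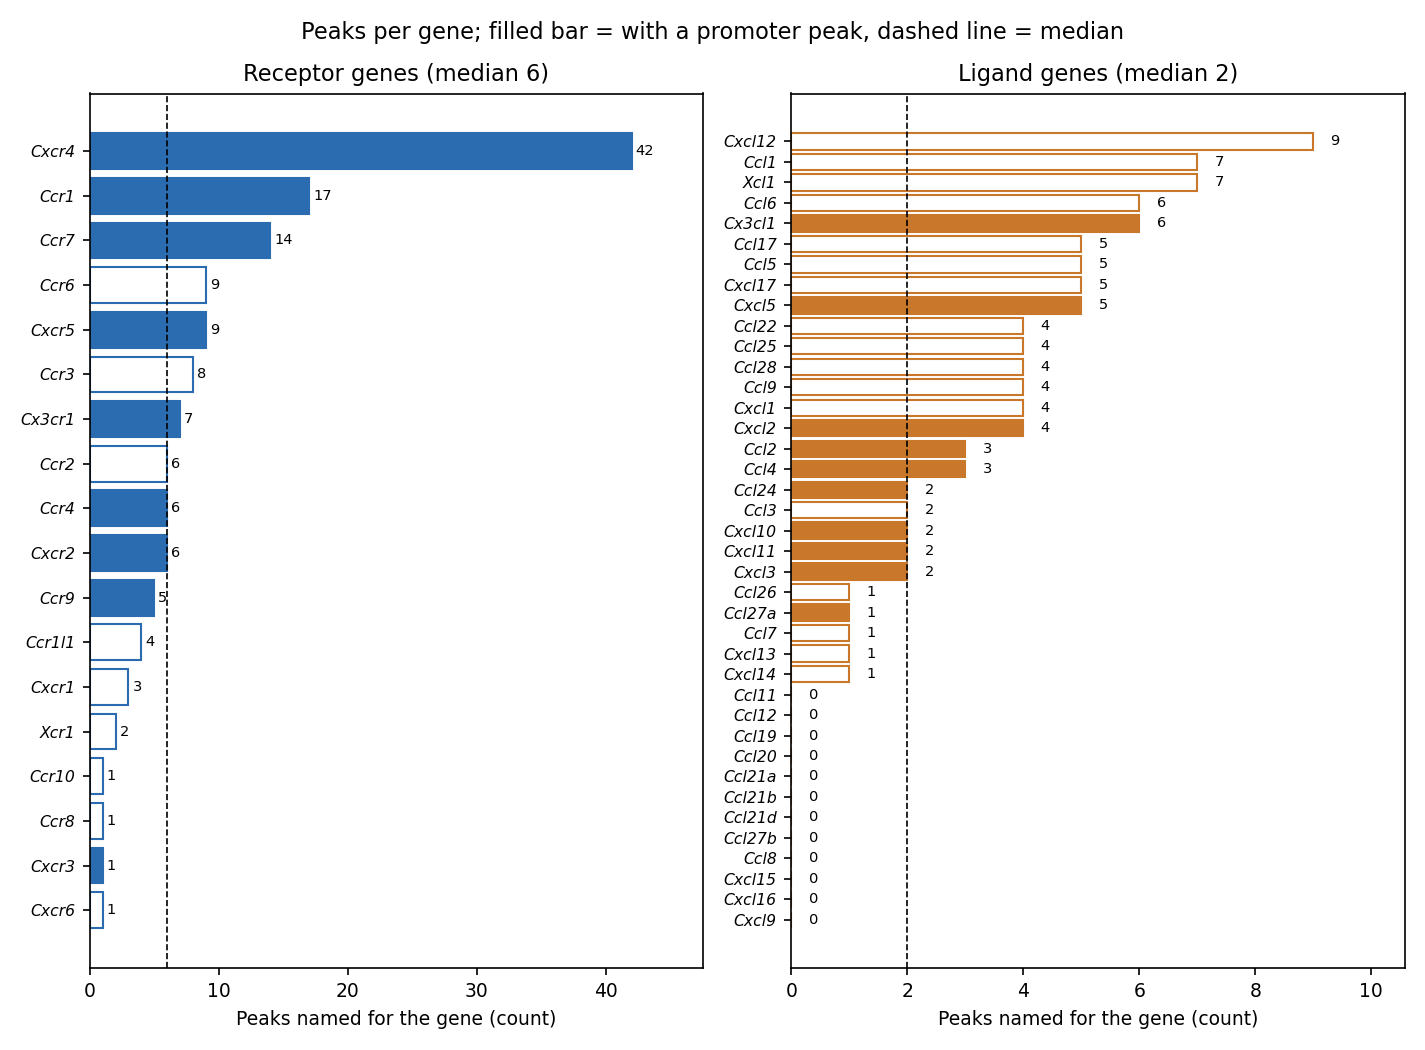
The number of peaks named for each of 18 of the 19 receptor genes (left, blue) and 39 ligand genes (right, orange, on its own axis scale), with filled bars for genes with a promoter peak and a dashed line at the median over all 19 or 39 genes. Cxcr4 reaches 42 peaks and no ligand goes beyond 9, while 12 ligands have none.

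Cxcr4, the receptor for Cxcl12, had the most peaks of the set, 42. Only 12 protein-coding genes, Cxcr4 included, had as many or more, and 99.9% had fewer. The peaks ran from chr1:128506851 to chr1:128875786, a span of 369 kb around a gene of 4.1 kb. Of the 42, 40 were intergenic, 1 lay in the intron of the gene, and 1 was the promoter peak, centred 131 bp upstream of the TSS. The upstream side held 29 non-promoter peaks and the downstream side 12. Most of what was named for Cxcr4 lay outside the gene and on its upstream side. The peaks reached 283238 bp upstream and 85199 bp downstream, and this split was not corrected for the room on each side. A run of 9 peaks was centred 9292 to 30930 bp upstream, and another of 8 peaks 103818 to 132411 bp upstream. In all, 15 peaks lay more than 100 kb upstream, the farthest 283238 bp away. Neighbouring centres were 962 to 42730 bp apart (median 5716 bp). Of the 41 non-promoter peaks, 12 lay on annotated repeats (29.3%, beside 17.9% of all non-promoter peaks). Cxcr4 also had a wide stretch with no nearer TSS, 428 kb, so its density of 9.81 peaks per 100 kb was higher than that of 75.6% of protein-coding genes, a lower standing than its count. The list cannot say which of these peaks belongs to Cxcr4 rather than to a gene farther away.

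Ccr1, a receptor for inflammatory CC ligands on myeloid cells, was next with 17 peaks in 46 kb. Its promoter peak was centred 22 bp upstream of the TSS (chr9:123968465-123968963), 2 peaks lay in the first intron of the gene, and the other 14 were intergenic, all downstream and 9853 to 45474 bp from the TSS. No peak lay upstream beyond 500 bp. At 27.3 peaks per 100 kb the gene was denser than 97.4% of protein-coding genes. The outermost peak overlaps an assembly gap, with 142 of its 499 bases unknown in the genome.

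Ccr7, which leads lymphocytes and dendritic cells to lymph nodes and the thymic medulla, had 14 peaks. The promoter peak (chr11:99154996-99155494) was centred 168 bp upstream of the TSS. Downstream, 2 peaks lay in the first intron of the gene, 4916 and 7123 bp from the TSS, 1 overlapped its 3' UTR and 3 lay beyond the gene, up to 30949 bp away. Upstream, 7 intergenic peaks were spread from 8123 to 34321 bp. Those 7 upstream peaks were nearer to Gm32249, a transcript with a curated RefSeq start, so 7 peaks were left for Ccr7 when RefSeq start sites were used.

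Ccr4, a receptor of T cells for Ccl17 and Ccl22, had 6 peaks. Its promoter peak (chr9:114496372-114496870) was centred 77 bp upstream of the TSS. Another 3 peaks, listed as intergenic, lay 1887, 4761 and 11153 bp upstream of that TSS. Those at 1887 and 4761 bp lie within the RefSeq span of Ccr4 (chr9:114490316-114505476), which extends upstream of that TSS. The outer pair lay inside other genes, in an intron of Trim71 30815 bp upstream and in intron 10 of Glb1 44507 bp downstream. Ccr9, the thymus and gut homing receptor, had 5 peaks. Its promoter peak (chr9:123766929-123767427) was centred 33 bp upstream of the TSS, 2 peaks lay 4057 and 12689 bp upstream, and 2 lay in introns 1 and 2 of the gene, 2485 and 6275 bp downstream. All 4 marker receptors therefore had a promoter peak, and each had further peaks on both sides of it.

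Among the other homing receptors, Cxcr5 and Ccr6, which place B cells and mucosal lymphocytes, had 9 peaks each. Cxcr5 had a promoter peak centred 31 bp upstream of the TSS, and the nearest Ccr6 peak was centred 1506 bp from it. Ccr8, Ccr10 and Cxcr6, receptors of skin and tissue lymphocytes, had 1 peak each, at 6744, 1469 and 10138 bp, and none was a promoter peak. Room was small for Ccr10, with 2.37 kb nearest to its TSS. Within 50 kb of the TSS, whatever gene they were named for, Ccr8, Ccr10 and Cxcr6 had 16, 11 and 7 peaks. Over the homing list 5 of 9 (55.6%) had a promoter peak and the median was 6 peaks. Over the inflammatory receptors, 5 of 8 (62.5%) had a promoter peak and the median was 6.5 peaks. These shares stand beside 54.9% of all protein-coding genes, whose median was 2 peaks. The difference between both lists was not tested.

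Among the inflammatory receptors, Cxcr2, the neutrophil receptor for Cxcl1 and Cxcl2, had a promoter peak 39 bp upstream and 6 peaks in all, and its neighbour Cxcr1 had 3 peaks, none at the promoter. Cx3cr1, a monocyte receptor, had 7 peaks with a promoter peak 3 bp from the TSS. Ccr2, which monocytes use to leave the marrow, had 6 peaks, the nearest 1247 bp upstream. Ccr3, an eosinophil receptor, had 8 peaks, the nearest 1862 bp upstream. Cxcr3, a receptor of activated T cells, had 1 peak, at its promoter (49 bp downstream). In neither list, Ccr1l1, a Ccr1-like gene, had 4 peaks given as 6746 bp or more upstream, but by the curated RefSeq TSS a peak centre lay 402 bp away. With Ccr1l1 counted, 11 of 19 receptors (57.9%) had a peak within 500 bp of a curated start, beside 60.4% of all protein-coding genes. Xcr1, a dendritic cell receptor and also in neither list, had 2 peaks, 1361 and 10189 bp upstream.

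**Figure D3:**
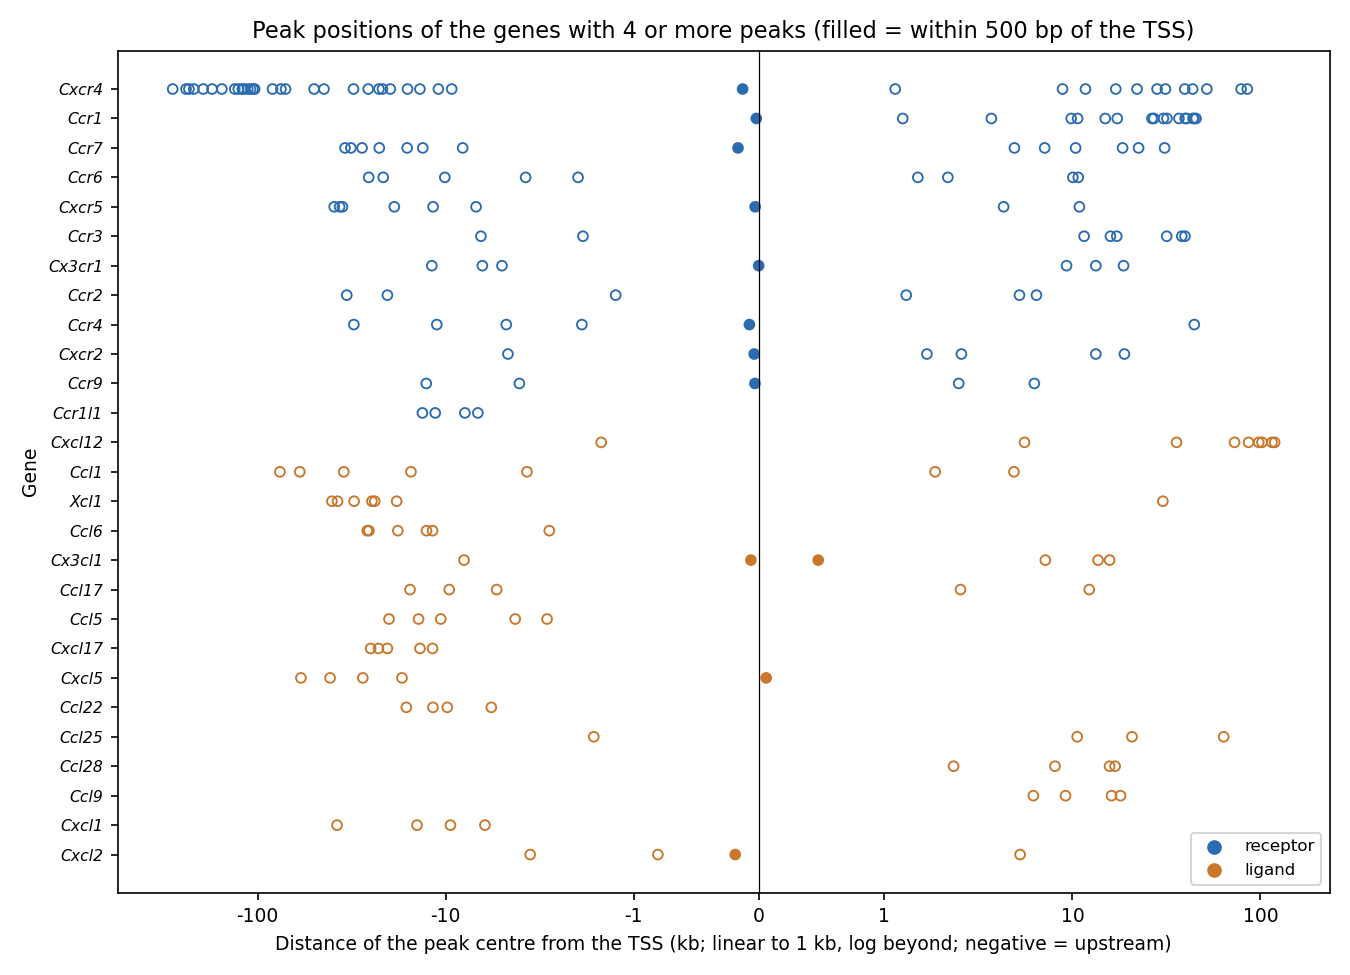
Distance of each peak centre from the TSS in kb (linear within 1 kb, logarithmic beyond) for the genes with 4 or more peaks, receptors in blue and ligands in orange, with filled points for promoter peaks. Cxcr4 reaches farther upstream than any other gene. Apart from promoter peaks, the receptor Ccr1 and the ligands Ccl9 and Ccl28 have peaks on the downstream side only. The receptor Ccr1l1 and the ligands Ccl5, Ccl6, Ccl22, Cxcl1, Cxcl5 and Cxcl17 have them on the upstream side only.

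Sequences of the peaks nearest to the TSS outside the promoter are shown for the genes with the most peaks, Cxcr4 and Ccr1 among receptors and Cxcl12, Ccl1 and Xcl1 among ligands, to set the distal elements beside the promoters. Each run is the central 200 bases of a peak on the gene's strand, chosen as the nearest peak whose centre holds no curated exon.
Cxcr4 (chr1:128591058-128591257, minus strand): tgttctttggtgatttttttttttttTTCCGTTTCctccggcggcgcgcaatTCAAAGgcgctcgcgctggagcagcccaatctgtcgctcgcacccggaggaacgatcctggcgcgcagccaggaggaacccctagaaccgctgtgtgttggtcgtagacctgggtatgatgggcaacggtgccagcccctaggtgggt
Ccr1 (chr9:123967341-123967540, minus strand): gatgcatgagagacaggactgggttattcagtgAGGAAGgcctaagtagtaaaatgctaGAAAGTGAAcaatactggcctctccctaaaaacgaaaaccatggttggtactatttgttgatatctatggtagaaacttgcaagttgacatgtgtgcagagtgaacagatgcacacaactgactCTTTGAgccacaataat
Cxcl12 (chr6:117166946-117167145, plus strand): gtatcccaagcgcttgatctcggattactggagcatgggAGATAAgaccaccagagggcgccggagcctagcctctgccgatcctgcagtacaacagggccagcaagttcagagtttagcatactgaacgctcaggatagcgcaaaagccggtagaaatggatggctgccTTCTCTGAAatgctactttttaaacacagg
Ccl1 (chr11:82183409-82183608, minus strand): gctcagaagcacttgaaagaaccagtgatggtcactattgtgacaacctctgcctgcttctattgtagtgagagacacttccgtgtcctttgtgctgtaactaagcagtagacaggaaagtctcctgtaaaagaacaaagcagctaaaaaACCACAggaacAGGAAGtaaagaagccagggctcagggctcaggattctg
Xcl1 (chr1:164953662-164953861, minus strand): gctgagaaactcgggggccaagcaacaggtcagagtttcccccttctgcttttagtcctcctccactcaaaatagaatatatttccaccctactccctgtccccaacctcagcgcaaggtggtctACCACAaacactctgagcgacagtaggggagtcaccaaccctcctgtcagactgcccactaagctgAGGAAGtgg
The Cxcr4 intron run held an IRF string and a TCF string. The Ccr1 intron run held an ETS, an IRF and a TCF string. The Cxcl12 run, 1390 to 1589 bp upstream of the TSS, held a GATA and a STAT string. The runs of Ccl1 and Xcl1, both T cell chemokines, each held 1 RUNX and 1 ETS string.

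Ligands had fewer peaks, and the peak nearest to the TSS, whatever gene it was named for, was farther away, with a median of 4665 bp against 168 bp for receptors and 194 bp for all protein-coding genes. The most were named for Cxcl12, the marrow retention factor, with 9 peaks and no promoter peak. Its nearest peak was centred 1490 bp upstream, 1 overlapped a 3' UTR 5563 bp downstream, and 7 intergenic peaks lay 35799 to 119082 bp downstream of the TSS. With 389 kb nearest to its TSS, Cxcl12 had 2.31 peaks per 100 kb, a density above that of 34.5% of protein-coding genes. Ccl1 and Xcl1 had 7 peaks each, again with none at the promoter. For Ccl1 the nearest was in the second intron, 1862 bp from the TSS, and the farthest 76164 bp upstream. For Xcl1, 6 peaks lay 18239 to 40286 bp upstream and 1 lay 30289 bp downstream, and those 6 upstream peaks were nearer to 1700029M03Rik by curated start sites, which left 1 peak.

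The homeostatic ligands were uneven. Of the 10 placed genes of that list (Ccl19, Ccl21a, Ccl21b, Ccl25, Ccl27a, Ccl27b, Ccl28, Cxcl12, Cxcl13 and Cxcl14), 6 had a peak, 1 had a promoter peak (10%, interval 1.79 to 40.4%) and the median distance from the TSS to any peak centre was 48890 bp. The 4 genes with no peak (Ccl19, Ccl21a, Ccl21b and Ccl27b) belong to the chr4 group of near-identical copies, where an absence of peaks is uncertain. Without the Ccl19, Ccl21 and Ccl27 genes, all 5 remaining ligands had a peak, none had a promoter peak and the median distance was 2334 bp. For all protein-coding genes, 77.3% had a peak, 54.9% had a promoter peak and the median distance was 194 bp. Cxcl13, the follicle chemokine, and Cxcl14 had 1 peak each, 80848 and 16931 bp downstream. Ccl28, a mucosal ligand, had 4 peaks, all in its own introns. Ccl25 had 4, the nearest 1631 bp upstream, but a peak named for the neighbouring Elavl1 was centred 74 bp from a curated Ccl25 start site. The promoter peak was that of Ccl27a, a skin ligand, centred 10 bp upstream.

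The inflammatory ligands were near all genes in the share with a peak or a promoter peak, but not in the distance to the nearest peak. Of 17 genes, 13 had a peak (76.5%, beside 77.3% of all protein-coding genes). A promoter peak was named for 8 (47.1%, interval 26.2 to 69%, beside 54.9%), and the median was 2 peaks per gene, beside 2. The median nearest centre was at 2890 bp, beside 194 bp for all protein-coding genes. The promoter peaks belonged to Ccl2 (centred 66 bp upstream), the monocyte attractant, to Ccl4 (219 bp upstream) and Ccl24 (159 bp upstream), to the neutrophil attractants Cxcl2 (190 bp upstream), Cxcl3 (143 bp upstream) and Cxcl5 (57 bp downstream), and to the interferon-induced Cxcl10 (76 bp upstream) and Cxcl11 (93 bp upstream), which RefSeq lists as a transcribed pseudogene in this genome. Cx3cl1, fractalkine, in neither list, had promoter peaks 65 bp upstream and 472 bp downstream. Ccl5, made by activated T cells, had 5 peaks 2890 to 20030 bp upstream and none at the promoter, and Ccl3 had 2 peaks, 9063 and 20383 bp downstream. The intervals of the inflammatory and homeostatic ligands overlap, and the difference was not tested.

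By position, 174 of the 249 peaks (69.9%) were intergenic, beside 37.6% of all peaks, and 43 (17.3%) were intronic, beside 40.5%. The share of intergenic peaks was 75.8% for receptors, 68.2% for receptors without Cxcr4, and 61% for ligands. The genes themselves were short, with a median of 5.16 kb (3.88 kb for ligands, 7.25 kb for receptors) beside 17.7 kb for all protein-coding genes. Of the 43 intronic peaks, 16 lay in an intron of a gene other than the one they were named for, 13 of 23 for ligands and 3 of 20 for receptors. The same share over all intronic peaks is not given here, so these counts have no background. All 6 Ccl6 peaks lay in introns of E230016K23Rik and all 5 Cxcl17 peaks in introns of 4732471J01Rik, and 1 peak each of Cxcl10 and Cxcl11 lay in Art3 introns. The median distance of non-promoter peaks from the TSS was 15788 bp, beside 22261 bp over all peaks, and 126 of 228 (55.3%) lay upstream, beside 41.7%. Upstream peaks were 54 of 89 for ligands (60.7%), 29 of 41 for Cxcr4 (70.7%) and 43 of 98 for the other receptors (43.9%, near that background). Repeats carried 44 of the 228 (19.3%), beside 17.9% of all non-promoter peaks, which is near that background.

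Most of the genes lie in arrays, and 10 clusters formed when member TSSs within 500 kb of each other were joined. Each cluster was measured from 10 kb outside its outer TSSs, and all peaks in it were counted whatever gene they were named for. Peaks named for a member but centred beyond that border were not counted. The genome as a whole had 3.18 peaks per 100 kb of assembled sequence, which includes sequence far from genes. For protein-coding genes the median was higher, 4.63 per 100 kb of the stretch nearest to the TSS. The 3 receptor clusters had 12.4 to 16.5 peaks per 100 kb, and the 7 ligand clusters had 0.0981 to 14.2.

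The largest receptor cluster, on chr9 (chr9:123757211-124112183, 355 kb), ran from Ccr9 through Cxcr6, Xcr1, Ccr1, Ccr1l1 and Ccr3 to Ccr2 and held 44 peaks, of which 42 were named for these genes and 2 for Fyco1. Its density was 12.4 per 100 kb, 3.9 times that of the genome, although 14.3% of its length is assembly gap. Promoter peaks were named for Ccr9 and Ccr1, and the other 5 genes had none. The peaks were uneven along the array. Cxcr6, a receptor of tissue T cells, had 1 peak 10138 bp away in an intron of Fyco1, and the stretch from 105.90 to 155.90 kb from the Ccr9 TSS is a gap in which no peak could be called. The Cxcr2 and Cxcr1 pair on chr1 had 10 peaks in 60.6 kb (16.5 per 100 kb), and the Cx3cr1 and Ccr8 pair on chr9 had 7 in 43.8 kb (16 per 100 kb), with a promoter peak for Cxcr2 and for Cx3cr1.

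**Figure D4:**
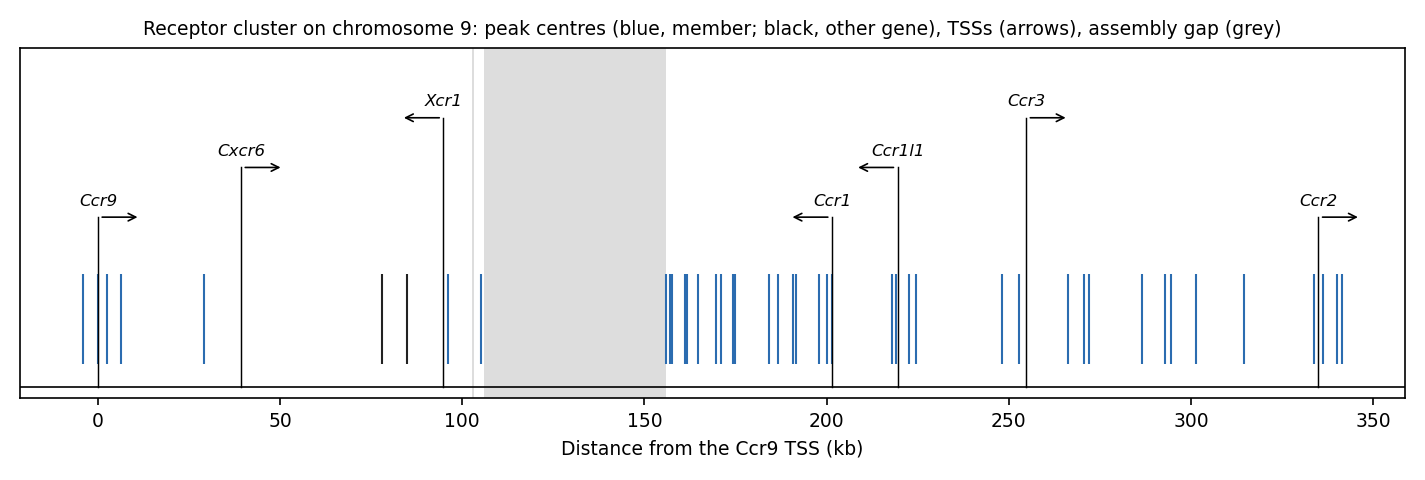
Map of the chromosome 9 receptor cluster in kb from the Ccr9 TSS, with the 44 peak centres as vertical lines (blue, named for a member; black, for Fyco1), TSSs with arrows in the direction of transcription and assembly gaps in grey. The peaks gather on the Ccr1 side of the larger gap and are sparse around Cxcr6.

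The ligand clusters ranged widely. On chr8, Ccl22, Cx3cl1 and Ccl17 had 12 peaks in 84.8 kb (14.2 per 100 kb), and on chr11, Ccl5, Ccl9, Ccl6, Ccl3 and Ccl4 had 20 in 152 kb (13.2 per 100 kb), both within the range of the receptor clusters. Another chr11 array with Ccl2, Ccl7, Ccl11, Ccl12, Ccl8 and Ccl1 had 5 peaks in 164 kb (3.04 per 100 kb). That is close to the genome value and below the median of 4.63 per 100 kb for protein-coding genes. It holds for the measured stretch only. Outside it lay further peaks named for Ccl1, 15307 to 76164 bp upstream, and for Ccl2, 28394 and 29556 bp upstream. Ccl11, Ccl12 and Ccl8, in the middle of that array, had no peak, with the nearest centre 15918, 59931 and 59739 bp from their TSSs. On chr5 the CXC array from Cxcl5 to Cxcl2, whose products attract neutrophils, had 15 peaks in 165 kb (9.11 per 100 kb), of which 4 were named for Pf4 and Ppbp, platelet chemokines inside the array. The chr5 pair Ccl26 and Ccl24 had 3 peaks (10.2 per 100 kb), and the chr5 group of Cxcl9, Cxcl10 and Cxcl11 had 4 (7.24 per 100 kb).

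The chr4 array stood lowest. Its 1020 kb (chr4:41764176-42783991) with Ccl27a, Ccl21d, Ccl21b, Ccl27b, Ccl19 and Ccl21a held 1 peak, the Ccl27a promoter peak, a density of 0.0981 per 100 kb and 0.0308 times that of the genome. The other 5 genes had no peak, and the nearest centre lay 86704 to 398934 bp from their TSSs. These are near-identical copies of Ccl19, Ccl21 and Ccl27, and the authors left out reads that map to several places, so that an absence of peaks there is uncertain and its relation to accessibility was not tested. Without the Ccl19, Ccl21 and Ccl27 genes the ligand median was 3 peaks.

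**Figure D5:**
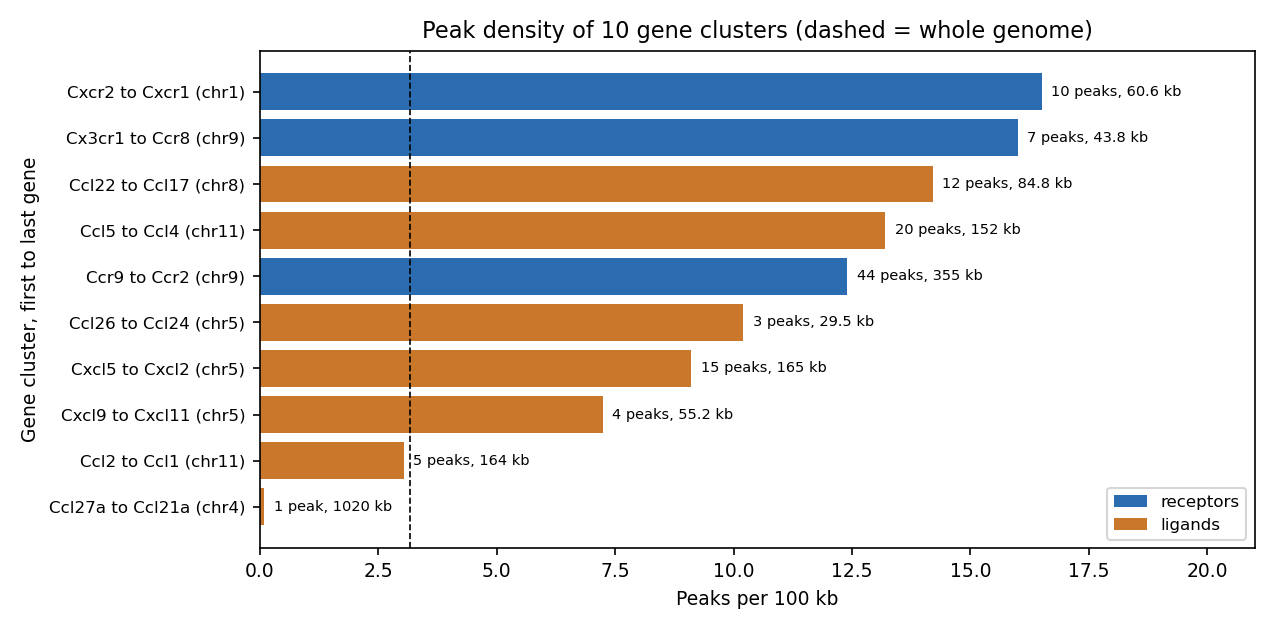
Peaks per 100 kb in the 10 clusters, with receptor clusters in blue and ligand clusters in orange, the count and length beside each bar and the genome value of 3.18 as a dashed line. The chr4 cluster (1 peak) and the chr11 cluster from Ccl2 to Ccl1 (5 peaks) lie below the line, and the 3 receptor clusters lie at 12.4 or more.

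Clustered and lone genes were counted apart. Over all protein-coding genes 77.3% had a peak and 54.9% a promoter peak. Of 30 ligands in clusters, 20 had a peak (66.7%) and 10 a promoter peak (33.3%), with a median of 2 peaks. Without the Ccl19, Ccl21 and Ccl27 genes, whose absence of peaks is uncertain, these were 19 (79.2%) and 9 (37.5%) of 24, with a median of 2.5. The 9 lone ligands (Ccl20, Ccl25, Ccl28, Cxcl12, Cxcl13, Cxcl14, Cxcl16, Cxcl17 and Xcl1) had a median of 4 peaks and none had a promoter peak. All 11 receptors of the clusters above had a peak, 4 a promoter peak and the median was 5. All 7 lone receptors (Ccr4, Ccr6, Ccr7, Ccr10, Cxcr3, Cxcr4 and Cxcr5) had a peak, 5 a promoter peak and the median was 9. In all, 12 ligands had no peak, among them 8 in the chr4 array and in the chr11 array of Ccl11, Ccl12 and Ccl8. The others were Ccl20, whose nearest centre was 40450 bp away, and Cxcl15, Cxcl16 and Cxcl9, whose nearest centres, named for Cxcl3, Med11 and Sdad1, were 4665, 7805 and 9756 bp away.

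The promoter peaks were poor in CpG. The ratio of observed to expected CpG was above 0.6 in 2 of 21 member promoter peaks (9.52%), those of Cxcr4 (0.69) and Cx3cl1 (0.67), beside 75.7% of all promoter peaks. The median ratio was 0.286, beside 0.778, and the median G and C content 53.1%, beside 63.3%. Ligands (0.347) and receptors (0.257) were both low. Non-promoter peaks had a median of 46.9% G and C, beside 47.7% of all non-promoter peaks. Base composition therefore differed from the background at promoters, and it bears on any share of peaks that hold a string.

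A set of 11 strings stood for binding motifs and were searched on both strands. Erythroid and megakaryocytic GATA factors were given by AGATAA. The RUNX family, central to stem cells and lymphocytes, was given by TGTGGT. The ETS family, which includes the myeloid and lymphoid regulator PU.1, was given by AGGAAG. The activation factor AP-1 was given by TGANTCA and the myeloid C/EBP family by TTGCNNAA. E-box proteins of lymphocytes had a pair of strings, the first being CAGCTG. The other E-box string was CAGGTG. The interferon regulatory factors (IRF) were given by GAAANNGAA, the cytokine-activated STAT family by TTCNNNGAA and the T cell factors (TCF) by CTTTGA. For NF-kB, which drives many inflammatory genes, the consensus was used. At least 1 occurred in 243 of the 249 peaks. The same share over all peaks is not given here, so this count marks no trait of these genes. The ETS string alone was in 65% of all 71072 non-promoter peaks. Matches to different strings may overlap. In the 228 non-promoter peaks the shares were close to those of all 71072 non-promoter peaks, with ETS in 63.6% beside 65%, RUNX in 48.2% beside 42.5%, GATA in 24.1% beside 26.9% and C/EBP in 24.6% beside 20.7%. The NF-kB consensus was in 12 of 89 ligand peaks (13.5%) and 11 of 139 receptor peaks (7.91%), beside 6.38%.

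In the promoter peaks, the ETS string was in 18 of 21 (85.7%), beside 48.1% of all promoter peaks and 63.4% of the 3205 promoter peaks with a CpG ratio up to 0.6. The CAGGTG E-box was in 13 of 21 (61.9%), beside 31.3% and 34.7%, while the CAGCTG E-box was in 4 of 21 (19%), beside 26.1% and 34.9%. The AP-1 and GATA strings were in 6 of 21 each (28.6%), beside 6.8% and 12% for AP-1 and 8.66% and 16.6% for GATA. RUNX was in 9 (42.9%), beside 19.6% and 31.1%. The C/EBP, STAT and TCF strings were in 3 each (14.3%), beside 11.6%, 9% and 16.2% of all promoter peaks. Of the promoter peaks with a CpG ratio up to 0.6, 18.7%, 12.8% and 24.7% held them. The IRF string was in 2 (9.52%), beside 10.5% and 16.5%. The NF-kB consensus was in 5 of 11 ligand promoter peaks, those of Cxcl2, Cxcl3, Cxcl5, Cxcl10 and Cxcl11, and in 1 of 10 receptor promoter peaks, that of Cxcr5, beside 9.23% and 9.3%. All 5 ligands are CXC chemokines of the inflammatory list. In the RefSeq windows from 250 bases before to 50 after the TSS, which 43 of the 58 genes had, the consensus was in 7 of 34 ligand windows (20.6%) and 2 of 16 receptor windows (12.5%), beside 4.51% of 32851 windows. Those ligand windows included the CC genes Ccl9, Ccl20 and Ccl27a beside Cxcl1, Cxcl2, Cxcl3 and Cxcl10, and the receptor windows were those of Ccr3 and Ccr6. Neighbouring CXC genes arose by duplication and may share sequence, so these were not treated as independent cases, and no test was run.

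To show these matches, the 200 bases upstream of the TSS are given for Cxcl2 and Cxcl10, chosen after the values were seen.
Cxcl2 (chr5:90903699-90903898, plus strand): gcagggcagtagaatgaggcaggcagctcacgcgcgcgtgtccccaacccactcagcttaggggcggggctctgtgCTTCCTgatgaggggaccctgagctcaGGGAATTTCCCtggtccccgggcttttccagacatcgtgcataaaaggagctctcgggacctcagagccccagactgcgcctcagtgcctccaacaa
Cxcl10 (chr5:92348890-92349089, minus strand): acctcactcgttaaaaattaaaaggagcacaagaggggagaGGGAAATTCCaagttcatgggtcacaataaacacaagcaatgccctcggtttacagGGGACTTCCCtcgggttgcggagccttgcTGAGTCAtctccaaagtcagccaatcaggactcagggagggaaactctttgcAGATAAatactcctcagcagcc
In Cxcl2 a pair of overlapping NF-kB matches covers bases 104 to 114, and an ETS string lies at bases 77 to 82. In Cxcl10 the NF-kB matches lie at bases 42 to 51 and 98 to 107, with an AP-1 string at bases 127 to 133 and a GATA string at bases 179 to 184. The Cxcr4, Ccr4 and Ccr9 runs held no NF-kB match.

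Other genes of the pathway mostly had start-site peaks. Of 32 such genes, all had a peak, beside 77.3% of all protein-coding genes, and 29 had a promoter peak (90.6%, beside 54.9%), with a median of 6 peaks (beside 2) and 284 in all. Peak counts of these genes, here and below, were not corrected for the room around each gene. All 9 G protein, receptor kinase and arrestin genes had a promoter peak, as did all 10 effectors and all 6 regulators. Among effectors, Elmo1, which with Dock2 activates Rac, had 53 peaks and Pik3cg, a kinase downstream of these receptors, had 16. Among regulators, Rgs1, Rgs2 and Rgs18, which shorten G protein signals, had 22, 20 and 15. Of the 5 atypical receptors, which bind chemokines without G protein signalling, Ackr1, Ackr3 and Ccrl2 had a promoter peak and Ackr2 and Ackr4 did not, and Ackr3, which also binds Cxcl12, had the most with 14 peaks. Pf4, a platelet chemokine, had 3 peaks with a promoter peak, and Ppbp had 1, 2463 bp from the TSS.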

How the data were processed

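ATAC-seq libraries of 12 samples from 6 cell types (2 per type) were sequenced, and the authors deposited 1 annotated list of peaks over all samples. The authors ran the ENCODE ATAC-seq pipeline on mm10, leaving out reads that map to several places, called reproducible peaks for each cell type, and merged and filtered them in chromVAR so that no peaks overlap. HOMER (4.10.2 in the submitters' processing notes) then named the nearest TSS. The deposited score is 0 in every peak and holds no measurement. Start, end and distance are in bp. Depth per sample is not recorded in the list, so it is unknown here. The list's other columns hold the annotation only.

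The members and gene lists were chosen with earlier results of these data known. A further receptor is counted in the totals but not reported here by name, in the clusters or in the plots of single genes. Full values were set for the 4 markers, for genes with a promoter peak and for the 3 ligands and 3 receptors with most peaks. Genes were matched to RefSeq (GRCm38.p6) by gene ID, which held for 99.9% of peaks. Genes whose symbol marks a pseudogene (4) and Ccl21c, not placed on a chromosome, were not counted. Cxcl11, listed by RefSeq as a transcribed pseudogene, was kept among the ligands. A promoter peak has its centre within 500 bp of a TSS. Strings were searched in peak sequences with Python 3.11.15, pysam 0.24.0 and pandas 2.3.3, and intervals computed with scipy 1.17.1. The string search and the nearest-TSS step were tested on simulated data. No sample groups were compared, since the list holds no value per sample.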

Additional observations from a re-analysis of the deposited data

How the results depend on the processing

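Of 24 alternatives for the counts and medians reported, 20 gave a value within 1.5 times the reported one. Giving peaks to genes by a basal domain of 2 kb upstream and 1 kb downstream extended up to 1 Mb gave 377 member peaks instead of 249, and nearest curated RefSeq start sites gave 234. Promoter peaks within 100 bp of the TSS were named for 6 ligands instead of 10 and for 8 receptors instead of 10. Counting all peaks within 50 kb of the TSS raised the medians to 8 for ligands and 15 for receptors. Restricting the search to the central 200 bp left 212 of 249 peaks with a string, again with no share over all peaks beside it. The counts of 10 of the 11 single strings moved by more than 1.5 times, as the sequence searched was shorter. The alternatives that left out Cxcr4 or the chr4 copies, used any peak near a curated start, gave the peaks of other pathway genes to curated start sites (284, as reported), or used promoter peaks with a low CpG ratio were chosen after seeing the data. A stricter score could not be tried, since the score is 0 in every peak. No paired analysis was possible because the list carries no value for a replicate. The list does not give the cell type of a peak, and its depth is unknown, so a gene without a peak is one for which none was listed, not one shown to be closed.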
